A study of Mus musculus with 6 samples.

Results

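The 3 uncoupling protein genes Ucp1, Ucp2 and Ucp3 and 5 genes known from brown fat, Cidea, Cox8b, Elovl3, Dio2 and Prdm16, were followed in gastrocnemius muscle, the large muscle of the calf, of HrasG12V and wild-type (WT) mice. The question was whether Ucp1 moved together with brown fat genes or alone. The 8 genes were found by symbol among the 23997 gene symbols listed for each library, and all 8 were above the mean of 0.5 FPKM that 13359 genes passed. FPKM scale a gene's reads to its transcript length and to the size of the library. The set had been selected on results from the FPKM of these same mice. The difference between the genotypes is therefore given for them as a description, and no conclusion is drawn from a test of it.

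One library was made from each of 6 mice, all untreated and 21 days old. The HrasG12V group held mice 2276, 2278 and 2279, which carried 1 HrasG12V allele (HrasG12V/+) and the Cre transgene (Caggs-Cre+). The WT group held littermates 2277, 2280 and 2281, typed Hras+/+, which by strain label carried the unrecombined floxed allele (HrasflG12V/+) and no Cre (Caggs-Cre-). The CAG promoter drives this Cre in tissues throughout the body, so the allele was not restricted to muscle. The groups therefore also differed by the Cre transgene, and the labels give no sex or litter.

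Uncoupling proteins are carriers of the inner mitochondrial membrane. UCP1 lets protons return to the matrix without ATP synthesis and is the heat source of brown and beige adipocytes, UCP2 is widely expressed and abundant in immune cells, and UCP3 is the form of skeletal muscle and brown fat, induced by fatty acids and fasting. In brown adipocytes Ucp1 is switched on through beta-adrenergic receptors, cAMP and thyroid hormone, together with Cidea, Elovl3, Dio2 and, in mice, Cox8b. PRDM16 is a transcriptional regulator of the brown and beige adipocyte state. Cox8b is also a gene of striated muscle, so it does not mark brown fat in this tissue.

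The 250 bases before the start of each uncoupling protein gene are shown because Ucp3 and its paralogs lay on opposite sides of WT in these mice. The sequences are those of RefSeq on GRCm38.p6, where 6 of the 8 genes had an entry, and all 3 genes lie on the plus strand, at chr8:83290098-83290347 for Ucp1, chr7:100493108-100493357 for Ucp2 and chr7:100472741-100472990 for Ucp3. Capitals mark the nuclear receptor recognition hexamer AGGTCA, the cAMP response element TGACGTCA and the TATA box letters TATAAA or TATATA, all searched on both strands.
Ucp1: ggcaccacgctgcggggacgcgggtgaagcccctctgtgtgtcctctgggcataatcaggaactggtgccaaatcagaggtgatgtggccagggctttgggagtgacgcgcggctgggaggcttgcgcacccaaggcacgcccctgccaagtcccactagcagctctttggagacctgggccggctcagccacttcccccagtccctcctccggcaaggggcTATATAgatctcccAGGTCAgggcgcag
Ucp2: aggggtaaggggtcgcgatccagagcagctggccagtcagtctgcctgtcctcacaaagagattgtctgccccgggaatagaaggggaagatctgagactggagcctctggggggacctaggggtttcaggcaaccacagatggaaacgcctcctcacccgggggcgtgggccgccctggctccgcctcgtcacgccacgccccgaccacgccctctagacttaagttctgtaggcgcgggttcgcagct
Ucp3: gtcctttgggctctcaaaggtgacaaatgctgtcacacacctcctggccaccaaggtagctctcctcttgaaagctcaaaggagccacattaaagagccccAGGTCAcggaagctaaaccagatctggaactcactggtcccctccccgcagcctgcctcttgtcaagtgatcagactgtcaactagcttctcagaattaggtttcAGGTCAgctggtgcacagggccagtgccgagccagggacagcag

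The Ucp1 window held TATATA from 28 to 23 bases and AGGTCA from 14 to 9 bases before the start. The Ucp3 window held AGGTCA from 149 to 144 and from 44 to 39 bases before the start, and the Ucp2 window held none of the capitalized motifs. CANNTG, the E-box, was found at 3 places before Ucp3 and at 2 before Ucp2, and the E-box from 40 to 35 bases before Ucp3 overlaps the nearer recognition hexamer. Of all 32851 promoter windows of this length, 14% held AGGTCA, 15.6% a TATA box, 1.55% TGACGTCA and 66.2% an E-box. A match of letters is a description of the window and not evidence of binding.

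The libraries were not alike within the HrasG12V group. The summed FPKM of 5 B cell markers was 0.614 to 1.19 in WT mice and 1.35 in mouse 2276, against 77.2 and 61.0 in mice 2278 and 2279. Summed T cell markers were 0.996 to 1.36 in WT mice and 1.42, 24.9 and 33.9 in mice 2276, 2278 and 2279. Summed neutrophil markers were 0.716 to 3.57 in WT mice and 19.7, 130 and 50.8 in the HrasG12V mice. Of 8 muscle fiber markers 2 were listed at 0 in all 6 libraries and 5 in at least 1, so a value of exactly 0 in these files can be a failed estimate. The 8 muscle fiber markers summed to 27751 to 37091 FPKM in WT and 20707 to 41199 in HrasG12V libraries. These sums cannot be compared, because different genes are listed at 0 in different libraries. Ckm was above 0 only in mouse 2278, Tnnt3 was at 0 in mouse 2276, and Myh1 was at 0 in WT mice 2277 and 2280. The log2 fold change of Hras itself was -0.44 with an SE of 0.47, and FPKM do not tell its alleles apart.

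Ucp1 was the member with the largest difference. Its level was 1.94 FPKM in WT mouse 2277, 0.662 FPKM in WT mouse 2280 and a listed 0 in WT mouse 2281, against 5.60, 35.8 and 5.92 FPKM in HrasG12V mice 2276, 2278 and 2279. All HrasG12V mice were above all WT mice, and mouse 2278 stood far above the other two HrasG12V mice. On the scale of log2(FPKM + 0.1) the difference was 4.32 with a standard error (SE) of 1.22 (n = 3 mice per genotype), and with a pseudocount of 1 it was 2.81. Without WT mouse 2281 it was 3.11, without mouse 2278 it was 3.44, and with mouse 2276 as the only HrasG12V mouse 3.41. Ucp1 lies at chr8:83290352-83298452 on GRCm38 (GENCODE vM21), and no other annotated gene overlaps it.

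Ucp3 was lower in all HrasG12V mice. Its level was 120, 80.6 and 128 FPKM in WT mice 2277, 2280 and 2281 and 37.1, 13.9 and 28.1 FPKM in HrasG12V mice 2276, 2278 and 2279. The genotypes did not overlap, and the mouse with the highest Ucp1 had the lowest Ucp3. The log2 fold change was -2.14 with an SE of 0.40, and it lay between -2.44 and -1.73 when any 1 mouse was left out. With mouse 2276 alone in the HrasG12V group it was -1.53. Summed markers of endothelial cells were also lower in all HrasG12V mice, at 123 to 124 FPKM against 139 to 171 FPKM in WT mice. Of these markers only Cdh5 was lower without overlap. Pecam1, Kdr, Tek and Emcn overlapped between the genotypes, and Emcn was highest in mouse 2276, at 28.9 FPKM. The part of endothelial cells in the Ucp3 level was not tested. Ucp3 lies at chr7:100472990-100486432, and the antisense gene Gm10603 overlaps it.

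Ucp2 had 12.7, 13.3 and 11.6 FPKM in WT mice 2277, 2280 and 2281 and 13.5, 20.2 and 21.6 FPKM in HrasG12V mice 2276, 2278 and 2279. The ranges did not overlap, but mouse 2276 was only just above the highest WT mouse. This gave a log2 fold change of 0.53 with an SE of 0.22, which was 0.11 with mouse 2276 as the only HrasG12V mouse. Mice 2278 and 2279 were the libraries with B and T cell transcripts, and summed macrophage markers were 57.5 to 66.4 FPKM in WT mice and 66.2, 195 and 109 FPKM in mice 2276, 2278 and 2279. The part of these cells in the Ucp2 level was not tested. Ucp2 lies at chr7:100493337-100502020, 6904 bases beyond the end of Ucp3, and the gene Dnajb13 on the other strand overlaps it.

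**Figure D1:**
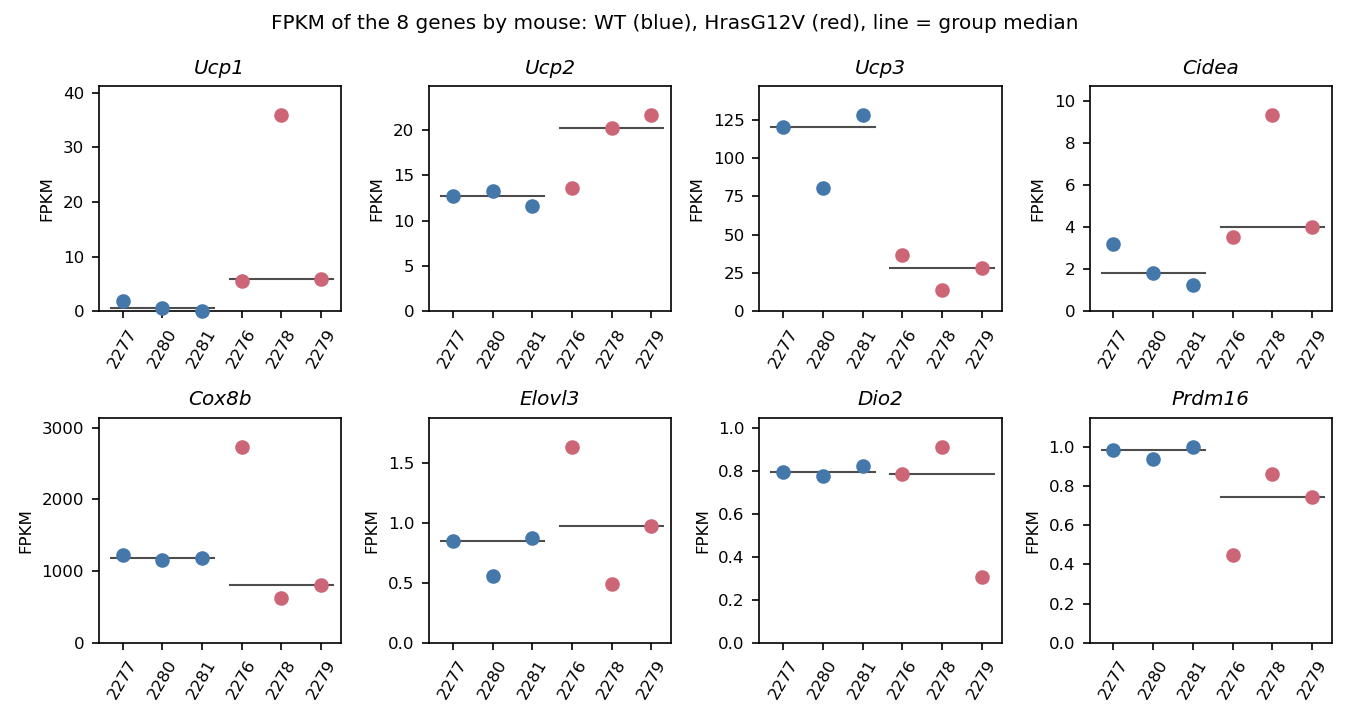
FPKM of the 8 genes on linear axes from 0, 1 panel per gene, with 1 point per mouse for 3 WT (blue) and 3 HrasG12V mice (red) and a line at each group median. Ucp1, Ucp2 and Cidea are higher and Ucp3 and Prdm16 lower in all HrasG12V mice than in all WT mice, and the point of Ucp1 in WT mouse 2281 is a listed 0.

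The balance among the 3 paralogs differed between the genotypes. FPKM are scaled to transcript length, so levels of the genes can be set side by side within a mouse. Ucp3 made up 89.1%, 85.2% and 91.7% of the summed FPKM of the 3 genes in WT mice 2277, 2280 and 2281, and 66.0%, 19.8% and 50.5% in HrasG12V mice 2276, 2278 and 2279. Ucp1 made up 0% to 1.44% in WT mice and 9.95%, 51.3% and 10.6% in the HrasG12V mice. In all 3 WT mice and in mice 2276 and 2279 the order was Ucp3, Ucp2, Ucp1, whereas in mouse 2278 it was Ucp1, Ucp2, Ucp3.

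Ucp3 also stood less far above Ucp2. The ratio of Ucp3 to Ucp2 was 9.42, 6.06 and 11.0 in WT mice 2277, 2280 and 2281, and 2.74, 0.687 and 1.30 in HrasG12V mice 2276, 2278 and 2279. The summed FPKM of the 3 genes was 94.6 to 139 in WT and 55.6 to 69.9 in HrasG12V mice, and the sums did not overlap.

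**Figure D2:**
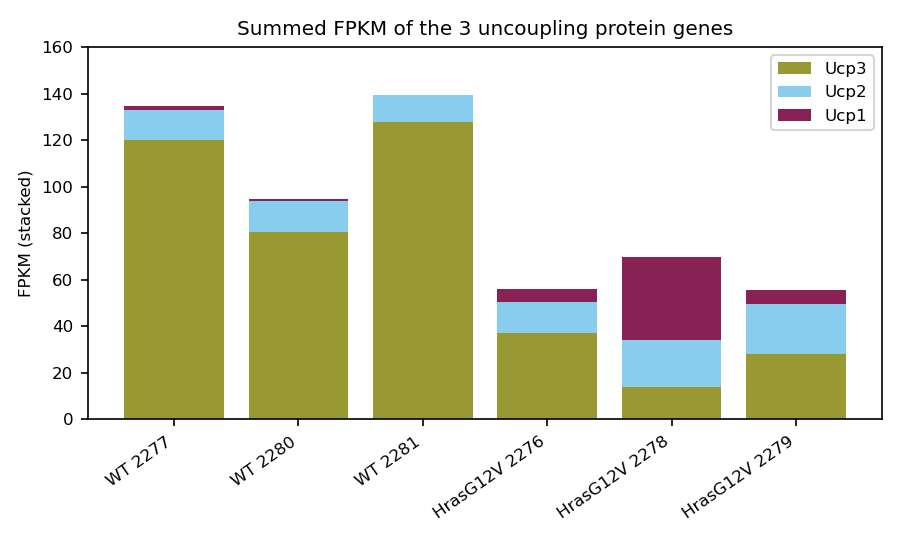
Stacked FPKM of Ucp3, Ucp2 and Ucp1 (vertical axis, linear from 0) in each of the 6 mice. The stack is 94.6 to 139 FPKM high and almost all Ucp3 in WT mice, and 55.6 to 69.9 FPKM in HrasG12V mice, where Ucp1 is the largest share in mouse 2278.

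Among the brown fat genes, Cidea was the one that was higher in all HrasG12V mice, as Ucp1 was. CIDEA is a lipid droplet protein of brown and beige adipocytes. Its level was 3.22, 1.85 and 1.24 FPKM in WT mice 2277, 2280 and 2281 and 3.52, 9.33 and 4.03 FPKM in HrasG12V mice 2276, 2278 and 2279. All HrasG12V mice were above all WT mice, with mouse 2276 close to WT mouse 2277. The log2 fold change was 1.34 with an SE of 0.47, 0.92 to 1.69 when any 1 mouse was left out, and 0.82 with mouse 2276 as the only HrasG12V mouse. Cidea lies at chr18:67343604-67367785, and the noncoding gene B430212C06Rik on the other strand overlaps it.

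Cox8b, which encodes the muscle and brown fat form of a cytochrome c oxidase subunit, measured 1229, 1154 and 1181 FPKM in WT mice 2277, 2280 and 2281. In HrasG12V mice 2276, 2278 and 2279 it was at 2732, 628 and 802 FPKM, so mouse 2276 was above and the other two below every WT mouse. On average the log2 fold change was -0.09 with an SE of 0.59, and it was 1.20 with mouse 2276 alone. The summed FPKM of all genes was also highest in mouse 2276, at 814013 against 413020 to 547122 in the other libraries. Cox7a1, the muscle and brown fat form of another subunit, was at 1769 FPKM there and at 337 to 866 FPKM in the others. Cox8b lies at chr7:140898945-140900446 on the minus strand, with no overlapping gene.

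Elovl3, an enzyme that lengthens very long chain fatty acids in brown fat and liver, had 0.846, 0.558 and 0.874 FPKM in WT mice 2277, 2280 and 2281. It was at 1.63, 0.490 and 0.970 FPKM in HrasG12V mice 2276, 2278 and 2279, and the lowest value of all was in mouse 2278, where Ucp1 was highest. The genotypes overlapped, with a log2 fold change of 0.28 and an SE of 0.46. Elovl3 lies at chr19:46131897-46135694, and Pitx3 on the other strand overlaps it.

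Dio2, the deiodinase that makes the active thyroid hormone T3 inside the cell, had 0.795, 0.778 and 0.824 FPKM in WT mice 2277, 2280 and 2281. It was at 0.785, 0.912 and 0.307 FPKM in HrasG12V mice 2276, 2278 and 2279, with 1 mouse within the WT range, 1 above and 1 below. This made a log2 fold change of -0.33 with an SE of 0.43. Dio2 lies at chr12:90724552-90738438 on the minus strand, and Gm26512 on the other strand overlaps it.

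Prdm16 had 0.984, 0.935 and 0.999 FPKM in WT mice 2277, 2280 and 2281 and 0.447, 0.862 and 0.742 FPKM in HrasG12V mice 2276, 2278 and 2279. All HrasG12V mice were below all WT mice, which is the direction opposite to Ucp1. The log2 fold change was -0.49 with an SE of 0.32, and the largest gap was in mouse 2276. Without that mouse it was -0.25, and with it as the only HrasG12V mouse -0.97. Prdm16 lies at chr4:154316125-154636873 on the minus strand, and 3 genes on the other strand overlap it. Apart from Elovl3 in mouse 2276, the values of Elovl3, Dio2 and Prdm16 were all below 1 FPKM.

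Over the 8 members, 3 were higher in all HrasG12V mice than in all WT mice, 2 were lower and 3 overlapped. Of all 13359 genes tested, 8.11% were higher and 10.4% lower without overlap. In the fit with limma 3 members had an unadjusted p below 0.05 and were higher and 1 was lower, against 5.18% and 4.99% of all genes, and 0 of 8 had an adjusted p below 0.05, against 0.0599% of all genes. The genes were selected on this comparison, so nothing is read from these counts.

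The order of the mice describes which members went along with Ucp1, in the same values on which the members were selected. Over the 6 libraries Pearson's r of log2(FPKM + 0.1) between Ucp1 and Cidea was 0.97, the 10th highest of 13358 genes, and both genes put the 6 mice in the same order. The r was 0.98 without WT mouse 2281, in which Ucp1 is listed at 0, and 0.94 for the deviations from each genotype's mean. These values describe 6 libraries that share the genotype difference and the outlying mouse 2278.

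The other members were less like Ucp1. The r with Ucp1 was 0.78 for Ucp2, -0.08 for Elovl3, -0.14 for Dio2, -0.26 for Cox8b, -0.43 for Prdm16 and -0.89 for Ucp3. For deviations from each genotype's mean it was 0.40 for Ucp2, -0.55 for Elovl3, 0.30 for Dio2, -0.35 for Cox8b, 0.36 for Prdm16 and -0.61 for Ucp3, so the sign turned for Dio2 and Prdm16. Cidea thus ordered the mice as Ucp1 did, whereas Cox8b, Elovl3, Dio2 and Prdm16 did not. Genes outside the set, among them neutrophil genes named below, gave that order too.

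**Figure D3:**
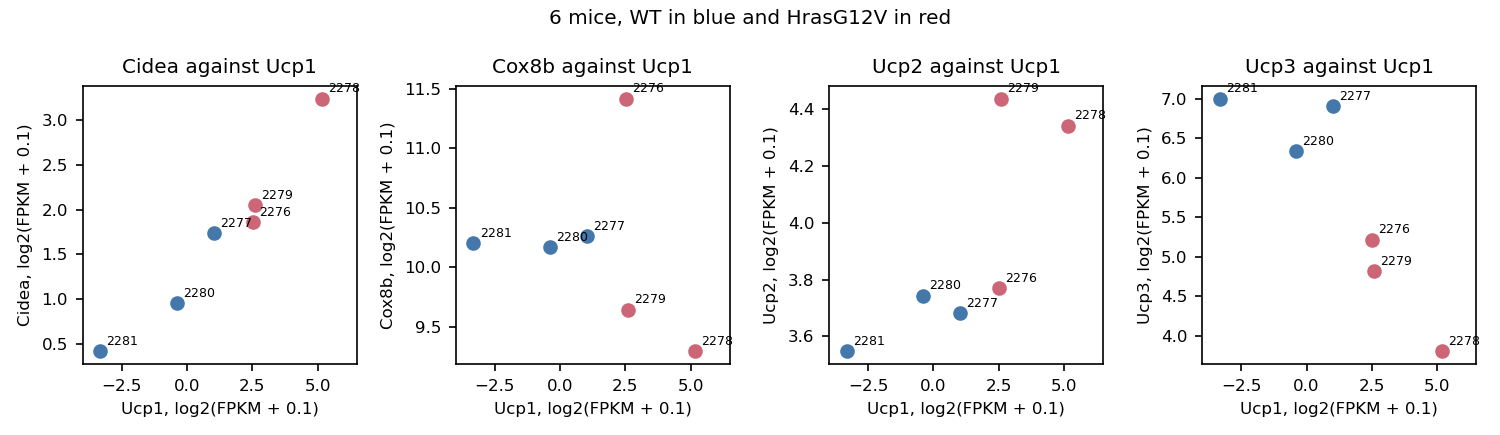
Levels of Cidea, Cox8b, Ucp2 and Ucp3 (vertical axes) against Ucp1 (horizontal axis), all as log2(FPKM + 0.1), with 1 labelled point per mouse in blue (WT) or red (HrasG12V). Cidea puts the 6 mice in the same order as Ucp1 (r 0.97), Ucp3 runs against it (r -0.89), and Cox8b is highest in mouse 2276 and lowest in mouse 2278.

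The genes most like Ucp1 over the 6 mice, of those with a mean of at least 1 FPKM, were 2610016A17Rik (r 0.99), Nudt5 (0.99), Etaa1 (0.98), Rps6ka4 (0.98) and Retnlg (0.98). Retnlg, a resistin-like gene expressed in neutrophils, had 0.498, 0.331 and 0.0986 FPKM in WT mice 2277, 2280 and 2281 and 1.505, 4.47 and 1.78 FPKM in HrasG12V mice 2276, 2278 and 2279. The WT means of Retnlg and Etaa1 were below the limit of 1 FPKM, so both were ranked only through the HrasG12V mice. The other four differed little in size, such as Nudt5 with 2.40 to 2.84 FPKM in WT and 3.10 to 3.70 FPKM in HrasG12V mice. The neutrophil gene S100a9 had an r of 0.95 with Ucp1. S100a9, Retnlg, 2610016A17Rik and Nudt5 put the 6 mice in the same order as Ucp1, as Cidea did. The part of neutrophils in the pattern of Ucp1 was not tested.

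The genes most like Ucp3 were Paip2b (r 0.995), Tinagl1 (0.99), Kcna5 (0.99), Rps6ka2 (0.99) and Slc2a12 (0.99). Rps6ka2, a kinase of the ERK pathway, had 52.1, 40.5 and 51.9 FPKM in WT mice 2277, 2280 and 2281 and 31.9, 18.2 and 28.1 FPKM in HrasG12V mice 2276, 2278 and 2279, so its order of mice was close to that of Ucp3. Slc2a12, a glucose transporter, ranged from 4.57 to 5.84 FPKM in WT and from 2.55 to 3.48 FPKM in HrasG12V mice.

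Ucp1 and Cidea are adipocyte genes, so their levels were set beside those of fat in the same libraries. Adipoq, the adipocyte hormone adiponectin, had 12.2, 13.7 and 2.88 FPKM in WT mice 2277, 2280 and 2281 and 8.40, 36.9 and 28.7 FPKM in HrasG12V mice 2276, 2278 and 2279. Adipoq was thus lowest in WT mouse 2281, in which Ucp1 is listed at 0, and highest in mouse 2278. More fat cells in a sample and more RNA per fat cell cannot be told apart in bulk tissue. The ratio of Ucp1 to Adipoq was 0.159, 0.0484 and 0 in WT mice 2277, 2280 and 2281 and 0.666, 0.972 and 0.206 in HrasG12V mice 2276, 2278 and 2279, and the genotypes did not overlap. Against Plin1, the coat protein of adipocyte lipid droplets, the ratio of Ucp1 was 0.451, 0.143 and 0 in the WT mice and 2.06, 1.64 and 0.445 in the HrasG12V mice, and mouse 2279 lay just below WT mouse 2277. The ratio of Cidea to Adipoq was 0.265, 0.135 and 0.429 in the WT mice and 0.419, 0.253 and 0.141 in the HrasG12V mice, and the genotypes overlapped.

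Of 12 adipocyte genes, 2 had an unadjusted p below 0.05 and were higher, 1 was lower, and none had an adjusted p below 0.05 (limma, smallest adjusted p 0.435). The median log2 fold change of the 12 was 0.77, against -0.03 over all genes tested. Acvr1c, with a WT mean of 0.250 FPKM, was below the filter of 0.5 FPKM in WT and was tested only through the HrasG12V mice. At a filter of 1 FPKM the median was 0.39 over 11 genes, and with a pseudocount of 1 it was 0.46 over the 12. Cfd, the complement factor adipsin, ranged from 5.09 to 27.4 FPKM in WT and was 35.5, 154 and 122 FPKM in HrasG12V mice 2276, 2278 and 2279 (log2 fold change 2.53, SE 0.81, limma p 0.0177, adjusted p 0.435). Retn, the hormone resistin, ranged from 1.37 to 6.53 FPKM in WT and was 8.19, 30.0 and 16.6 FPKM in the HrasG12V mice (log2 fold change 2.10, SE 0.69, limma p 0.0197, adjusted p 0.439). Plin4, a lipid droplet coat protein also made in muscle fibers, was lower (log2 fold change -0.67, SE 0.24, limma p 0.0296, adjusted p 0.469). The median of the 12 was 1.47 without mouse 2276, 0.29 without WT mouse 2281 and -0.02 with mouse 2276 as the only HrasG12V mouse. The genes of the list were not alike by mouse. Adipoq, Plin1, Cidec, Acvr1c and Pparg were above all WT mice in mice 2278 and 2279 but not in mouse 2276. Cfd, Retn and Fabp4 were above all WT mice in all 3 HrasG12V mice, and Plin4 was below them in all 3. Lep was above all WT mice in mouse 2278 and Lipe in mouse 2279, whereas Pnpla2 was above them in mice 2276 and 2279 and below them in mouse 2278.

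The summed FPKM of 7 adipocyte markers was 407 to 734 in WT mice and 827, 1001 and 913 in HrasG12V mice 2276, 2278 and 2279, above all WT mice in all 3. Fabp4, which endothelial cells also make, was most of that sum. The 6 markers other than Fabp4 summed to 11.8 to 62.2 FPKM in WT mice and to 58.2, 261 and 199 FPKM in the HrasG12V mice, with mouse 2276 within the WT range. The part of fat cells in the levels of Ucp1 and Cidea was not tested.

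**Figure D4:**
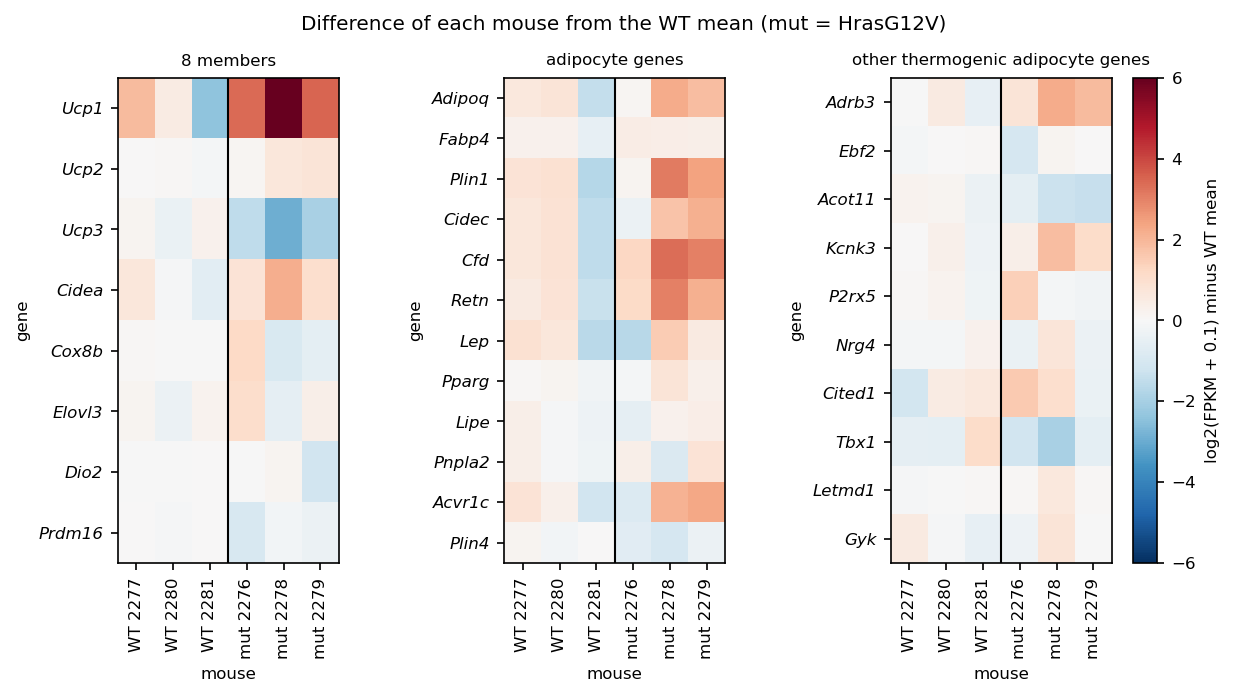
Difference of each mouse from the WT mean in log2(FPKM + 0.1), in color from blue (lower) to red (higher), for the 8 members, 12 adipocyte genes and 10 other genes of thermogenic adipocytes, with 3 WT mice left and 3 HrasG12V mice right of the line. Ucp1 is high in all 3 HrasG12V mice, while the adipocyte genes differ among themselves, with Cfd and Retn above all WT mice in all 3 HrasG12V mice, Adipoq and Plin1 in mice 2278 and 2279, and Pnpla2 below all WT mice in mouse 2278.

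Of 16 other genes of thermogenic adipocytes, 10 were tested, 2 were higher and 1 lower at an unadjusted p below 0.05, and none at an adjusted p (limma, smallest adjusted p 0.382). Their median log2 fold change was 0.19, but -0.06 without mouse 2278 and -0.13 with mouse 2276 as the only HrasG12V mouse. Both higher genes, Adrb3 and Kcnk3, had WT means below the filter of 0.5 FPKM and were tested only through the HrasG12V mice, and at a filter of 1 FPKM 0 genes of the list were higher. Adrb3, the beta-adrenergic receptor of adipocytes, had 0.226, 0.372 and 0.132 FPKM in WT mice 2277, 2280 and 2281 and 0.460, 1.45 and 1.11 FPKM in HrasG12V mice 2276, 2278 and 2279 (log2 fold change 1.63, SE 0.56). Kcnk3, a potassium channel of brown adipocytes among other cells, was at 0.354 to 0.590 FPKM in WT and at 0.622, 1.93 and 1.12 FPKM in the HrasG12V mice (log2 fold change 1.10, SE 0.46). Acot11, a thioesterase of brown fat, went the other way, from 3.03 to 4.56 FPKM in WT to 2.59, 1.58 and 1.44 FPKM (log2 fold change -1.08, SE 0.28, limma p 0.00685, adjusted p 0.382). Tbx1, a transcription factor linked to beige fat and also made in muscle, had the lowest log2 fold change of the list, -1.22 with an SE of 0.54 and a limma p of 0.0606. The 6 genes below the filter, Zic1, Lhx8, Otop1, Slc27a2, Bmp8b and Tmem26, were at most 0.888 FPKM in any mouse. Zic1, a transcription factor that marks classical brown fat, had 0.0590, 0.0797 and 0.0603 FPKM in WT mice 2277, 2280 and 2281 and 0.447, 0.193 and 0.259 FPKM in HrasG12V mice 2276, 2278 and 2279, with no overlap at this low level. The other 5 overlapped between the genotypes. Without a filter 3 of the 16 genes were higher and 1 lower at an unadjusted p below 0.05 in limma, and 0 at an adjusted p.

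Genes of oxidative metabolism that brown fat shares with muscle mostly had negative log2 fold changes, unlike Ucp1. This did not hold with mouse 2276 as the only HrasG12V mouse. Of 14 tested, 13 had a negative log2 fold change, as had 7129 of all 13359 genes tested, and the median was -0.49. At an unadjusted p below 0.05, 0 were higher and 2 lower, and there was none at an adjusted p (limma, smallest adjusted p 0.288). Ppargc1a, the coactivator PGC1-alpha that drives mitochondrial genes and Ucp1, had 9.19, 8.96 and 10.1 FPKM in WT mice 2277, 2280 and 2281 and 5.48, 5.22 and 6.05 FPKM in HrasG12V mice 2276, 2278 and 2279. The groups were tight and apart (log2 fold change -0.74, SE 0.14, limma p 0.00127, adjusted p 0.288), and its r with Ucp3 was 0.94. Plin5, a droplet protein of oxidative tissue, had a log2 fold change of -1.31 with an SE of 0.50 (limma p 0.0374, adjusted p 0.481), and the highest value of the list was 0.47 with an SE of 0.35 for Cox8a, the ubiquitous counterpart of Cox8b. The median of the 14 was -0.82 without mouse 2276, -0.18 without mouse 2278 and 0.24 with mouse 2276 as the only HrasG12V mouse.

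Ucp3 in muscle is a target of the fatty acid sensing PPAR receptors, and 13 genes were set beside it, 10 targets together with Ppara and Ppard, which encode such receptors, and Rxra, which encodes their partner. Of these 0 were higher and 2 lower at an unadjusted p below 0.05, none at an adjusted p (limma, smallest adjusted p 0.382), and the median log2 fold change was -0.40, or -0.43 over the 10 targets. Over the 13 it was -0.24 without WT mouse 2277, -0.11 without mouse 2278, -0.67 without mouse 2279 and -0.19 with mouse 2276 as the only HrasG12V mouse. Pdk4, the kinase that shuts pyruvate dehydrogenase during fasting, had 1241, 857 and 681 FPKM in WT mice 2277, 2280 and 2281 and 240, 101 and 405 FPKM in HrasG12V mice 2276, 2278 and 2279. Its log2 fold change of -2.07 was near that of Ucp3 (SE 0.55, limma p 0.00788, adjusted p 0.382), and mouse 2278 was lowest for both genes. Cd36, a fatty acid transporter, had -0.84 with an SE of 0.33 (limma p 0.0419, adjusted p 0.483).

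Other routes to heat and to Ucp1 were read in the same way. Of 5 other carriers of the inner membrane that were tested, 0 had an unadjusted p below 0.05 in limma, and log2 fold changes ran from -0.36 for Slc25a30 to 0.15 for Slc25a27, with a median of 0.04. Of 9 tested genes of heat production without Ucp1, 1 was higher at an unadjusted p below 0.05 and none at an adjusted p. The median was -0.14 over the 8 genes other than Ckm and 0.11 with it. The gene was Sln, sarcolipin, which uncouples the calcium pump of muscle, with 22.9, 12.9 and 7.20 FPKM in WT mice 2277, 2280 and 2281 and 47.7, 23.8 and 98.6 FPKM in HrasG12V mice 2276, 2278 and 2279. Its log2 fold change was 1.90 with an SE of 0.61 (limma p 0.0183, adjusted p 0.435). Alpl had the lowest, -0.96 with an SE of 0.55. Ckm, muscle creatine kinase, is listed at 0 in 5 libraries and at 7165 FPKM in mouse 2278, and Atp2a1, the calcium pump of fast fibers, is listed at 0 in all 6, so neither can be compared.

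Of 6 tested genes of thyroid hormone handling, 1 was higher and 2 were lower at an unadjusted p below 0.05, and none at an adjusted p (limma, smallest adjusted p 0.398), with a median of -0.04. Crym, a cytosolic T3-binding protein, was at 3.63 to 4.25 FPKM in WT and at 18.8, 8.71 and 5.32 FPKM in HrasG12V mice 2276, 2278 and 2279 (log2 fold change 1.28, SE 0.43, limma p 0.0223, adjusted p 0.448). The hormone transporter gene Slc16a10 had -0.62 with an SE of 0.17 (limma p 0.0103, adjusted p 0.398), and the receptor gene Thrb -0.51 with an SE of 0.17 (limma p 0.0243, adjusted p 0.454). Of 9 tested genes of adrenergic and cAMP signaling, 0 were higher and 1 was lower at an unadjusted p below 0.05, and none at an adjusted p, with a median of -0.07. That gene was Pde4d, a phosphodiesterase that degrades cAMP, with -0.91 and an SE of 0.31 (limma p 0.0223, adjusted p 0.448), and the highest value was 0.79 with an SE of 0.58 for Pde3b.

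**Figure D5:**
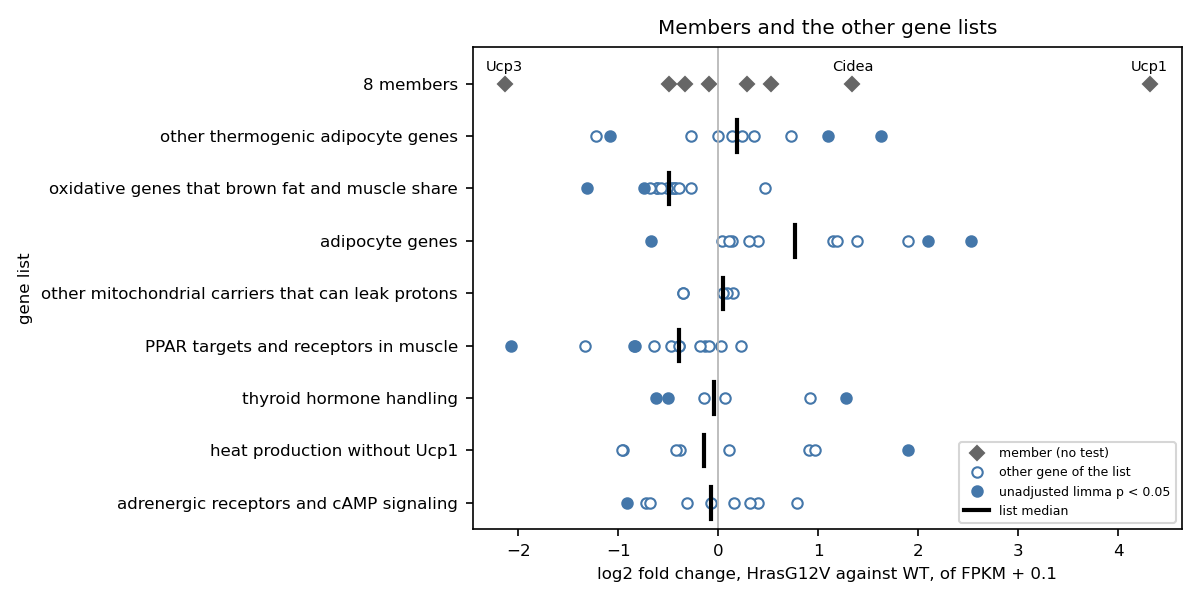
Log2 fold change of HrasG12V against WT of FPKM + 0.1 (horizontal axis) for the 8 members (diamonds) and 8 other gene lists (circles, 1 per gene). Diamonds are drawn without a test result. Circles are filled at an unadjusted limma p below 0.05, and the list median is a black bar. Ckm, listed at 0 in 5 libraries, is neither drawn nor counted in the median shown, and no listed gene has an adjusted p below 0.05. The adipocyte list has the highest median, 0.77, and the oxidative list the lowest, -0.49.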

How the data were processed

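RNAseq of 6 gastrocnemius muscles was used, with genotype and mouse number taken from the labels. Per the labels and the methods, stranded mRNA libraries were sequenced as single-end reads, TopHat mapped them to GRCm38/mm10, and Cufflinks and Cuffnorm gave the FPKM that the authors deposited, 1 value per gene symbol. The sources used here do not give versions, annotation or whether counting used strand, so values of overlapping genes are uncertain. For pairs of libraries, the fullest narrow interval of the ratio of low FPKM held 3.97% to 4.98% of low genes between WT libraries. In the other pairs it held 0.880% to 2.25%, so steps of whole reads were not clear across libraries. Only the methods' target of reads per sample therefore speaks to depth. No count model was used, and precision rests on the spread between 3 mice per genotype. Samples are from separate animals.

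From these values log2(FPKM + 0.1) was computed for 13359 genes whose mean reached 0.5 FPKM, and the genotypes were compared with limma 3.58.1 (under R 4.3.3, moderated variances with an abundance trend, Benjamini-Hochberg adjustment over all genes tested, limit 0.05, no covariate). Standard errors are those of this fit. An exact permutation test of 3 against 3 mice cannot give a two-sided p below 0.1. Likeness was Pearson's r over 6 libraries, given without p, and its values without mouse 2281 and for deviations from the genotype means, and the medians without Ckm and over the 10 targets, were added after seeing the data.

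The 8 members and all gene lists were chosen with earlier results of these data known. Genes named are the members, list genes with an unadjusted p below 0.05, the highest and lowest of each list, and the 5 genes most like Ucp1 and Ucp3 whose mean reached 1 FPKM, small RNAs excluded. The result for 1 list gene is not reported here. Adipoq, Plin1, Cidec, Acvr1c, Pparg, Fabp4, Lep, Lipe, Pnpla2, Ppara, Ppard, Rxra, Cox7a1, S100a9, Atp2a1, Hras and the list genes below the filter were added after their values were seen. The same holds for the named muscle fiber and endothelial markers. In the files Gk is named Gyk and Adgre1 is named Emr1. Positions are those of GENCODE vM21. As alternatives, the pseudocount was set to 1 or 0.01, the filter dropped or set to 1 FPKM, with quantile normalization, equal totals, equal medians, array weights, no moderation, leaving out each mouse and leaving out mice 2278 and 2279 together. Figures used matplotlib 3.10.9, and tables pandas 2.3.3 and numpy 2.4.6 under Python 3.11.15.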

Additional observations from a re-analysis of the deposited data

How the results depend on the processing

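With 3 mice per genotype the limits here are the depth behind single FPKM, known only as the nominal depth in the methods, and the weight of single mice. The log2 fold changes of Ucp1, Ucp3 and Cidea kept their direction under every alternative run. Ucp1 ranged from 2.81 with a pseudocount of 1 to 5.49 with 0.01, and from 3.11 to 5.28 when 1 mouse was left out, and Ucp3 from -2.44 to -1.73. Without mice 2278 and 2279 Ucp3 was -1.53. Cox8b, Elovl3 and Dio2 changed sign between alternatives that left out 1 mouse. The 8 genes with an adjusted p below 0.05 became 5 with a pseudocount of 1, 572 with array weights and 1 without moderation, and 7 to 1291 when 1 mouse was left out, with the highest count without mouse 2276. The 1358 genes with an unadjusted p below 0.05 became 712 with equal totals and 3042 with array weights, and 606 to 3979 when 1 mouse was left out. Of the thermogenic list 3 genes became 1 at a filter of 1 FPKM, 1 with equal totals and 1 to 3 when 1 mouse was left out, with 1 without mouse 2281, 2278 or 2279. Of the adipocyte list 3 became 5 with array weights, 1 without moderation and 0 to 7 when 1 mouse was left out, with 0 without mouse 2278 and 7 without mouse 2276. Of the PPAR list 2 became 1 with quantile normalization, 5 with array weights, 1 without moderation and 1 to 4 when 1 mouse was left out. When 1 mouse was left out the oxidative list had 1 to 10 genes against 2, the cAMP list 0 to 6 against 1, the heat list 0 to 3 against 1 and the thyroid list 1 to 4 against 3. Of these settings the one without mouse 2276 gave the highest oxidative, cAMP and heat counts, and array weights gave 12, 4 and 4. The heat and cAMP lists had 0 without mouse 2281, the heat list also without mouse 2280 or moderation, and the cAMP list also without mouse 2277. The thyroid list had 1 with equal totals and without mouse 2277, 2281 or 2278. At an adjusted p below 0.05 in limma, the setting without mouse 2276 gave 3 oxidative, 2 thermogenic, 2 heat, 2 cAMP, 1 PPAR and 1 carrier gene. That was beside 1291 of all genes. Array weights gave 1 oxidative, 1 thermogenic, 2 heat and 1 cAMP gene at that limit, beside 572 of all genes. The adipocyte and thyroid lists had 0 in both settings. The cause of these changes was not tested. No paired analysis was possible because the mouse numbers are not shared between the genotypes and the labels give no litter.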
